A study of Mus musculus with 48 samples.

Results

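Apoe and 8 genes that act with it in the liver X receptor (LXR) programme of cholesterol efflux were followed through mouse macrophages of 8 populations, each with and without the compound AP-3-84. The 9 genes, of 51789 in the count table, were found by symbol: the apolipoprotein genes Apoe, Apoc1 and Apoc2, the transporter genes Abca1 and Abcg1, the lipase gene Lpl, the receptor genes Nr1h3 and Nr1h2, and Mylip. Apoe was chosen by its very high counts in 1 group, the vehicle-treated unpolarized libraries labelled p53 knockout. Its values in any comparison with that group are therefore given as a description with no test. The other 8 genes were listed around it by pathway, with earlier results of these data known.

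Macrophages load cholesterol when they take up dead cells and lipoproteins, and they dispose of it by efflux. Oxysterols, oxidized forms of cholesterol, bind LXRα (Nr1h3) and LXRβ (Nr1h2), nuclear receptors that pair with retinoid X receptors on DNA and switch on efflux genes. ABCA1 passes cholesterol to lipid-poor apolipoproteins and ABCG1 passes it to mature high-density lipoprotein. ApoE, which macrophages secrete, is a lipid acceptor and a ligand of lipoprotein receptors. ApoC-I and ApoC-II are small exchangeable apolipoproteins, and ApoC-II is the cofactor of lipoprotein lipase (Lpl), which frees fatty acids from triglyceride. Mylip, also called IDOL, marks the low-density lipoprotein receptor for degradation.

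The study asked what AP-3-84, a compound the labels name without describing, does to macrophages of different origin. Cells received 10 µM of it, or as much of the solvent DMSO (vehicle), for 4 h, and their RNA was sequenced from the 3′ ends of mRNA in 48 libraries, 3 in each of 16 groups. Ascites macrophages were F4/80+ cells taken with beads from the washed peritoneum of mice that had carried ID8, an ovarian tumour line of the mouse, for 45 days, and their genotype label is B6(Cg)-Tyrc-2J/J. Thioglycollate macrophages (thio) were F4/80+ peritoneal cells of mice labelled wild-type C57BL/6, taken 4 days after 1 ml of 3% thioglycollate, an irritant. The other 6 populations were grown from bone marrow of wild-type (WT) or p53 knockout (KO) B6 mice with the growth factor M-CSF (10 ng/mL, 6 days). Unpolarized cells are called M0. M1 cells had LPS (100 ng/mL) plus IFN-γ (50 ng/mL) for 24 h more, and M2 cells had IL-4 plus IL-13, both at 10 ng/mL, for as long. A name such as KO_M0 joins genotype and state. Genotype follows titles and descriptions, since the genotype field calls all bone marrow-derived libraries wild-type. The labels give no ages, do not say how p53 was deleted, and do not say whether replicates were separate animals or cultures, so p-values measure only the spread between these samples.

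Apoe, Apoc1 and Apoc2 lie in 1 cluster on mouse chromosome 7 (GRCm38, GENCODE M21): Apoc2 at chr7:19671579-19677941, Apoc1 at chr7:19689481-19692660 and Apoe at chr7:19696109-19699188, all on the minus strand. Apoc4 lies between Apoc2 and Apoc1, and the gene model Gm44805 overlaps Apoc2, but no library gave it a count. Nr1h2 lies elsewhere on chromosome 7, Abca1 on chromosome 4, Nr1h3 on chromosome 2, Abcg1 on chromosome 17, Mylip on chromosome 13 and Lpl on chromosome 8. Abca1, Apoc2 and Apoe are shown here by their promoters. Sequence further from the start was not searched, so a window without a motif does not say that a gene has none. RefSeq promoters (GRCm38.p6, 250 bases before to 50 after a start) matched 6 of the 9 genes, Abca1, Apoc2, Apoe, Mylip, Nr1h2 and Nr1h3. The 120 bases before the start are printed 5′ to 3′ on the gene's strand, with motif matches in capitals.
Abca1 (chr4:53159896-53160015, minus strand): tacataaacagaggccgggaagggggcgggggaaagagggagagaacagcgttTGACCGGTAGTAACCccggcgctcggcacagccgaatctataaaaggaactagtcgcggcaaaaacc
Apoc2 (chr7:19677942-19678061, minus strand): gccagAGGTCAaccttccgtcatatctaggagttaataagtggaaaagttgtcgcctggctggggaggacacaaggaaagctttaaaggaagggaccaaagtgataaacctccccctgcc
Apoe (chr7:19699189-19699308, minus strand): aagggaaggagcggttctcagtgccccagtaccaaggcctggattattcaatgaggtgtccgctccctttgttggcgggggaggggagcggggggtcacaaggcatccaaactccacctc
The capitals in Abca1 mark a match, on the opposite strand at positions -67 to -53, to the spaced direct repeat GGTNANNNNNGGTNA, the kind of sequence that LXR and its partner are known to bind. Searched on both strands, that repeat was in 236 of 32851 promoters (0.718%), and among the member genes in Abca1 alone. The capitals in Apoc2 mark the single unit AGGTCA, which was in 16.3% of all promoters. The unit was also at positions 43 to 48 of Apoc2, inside the gene, and in no other member promoter. A match describes these letters only. The Apoe window held neither motif.

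Depth differed by origin, with 15532373 to 19417581 counts per peritoneal library and 3081707 to 4645148 per bone marrow-derived library. The origins were therefore fitted apart, and levels are given as CPM, counts scaled to a common library size, within an origin. All 9 genes were in both fits. Apoc1 passed the filter on low counts among bone marrow-derived libraries only through KO_M0, so its values in any comparison with KO_M0 vehicle are a description, with no test, and it is left out of the counts there. In the other bone marrow-derived comparisons it stays among the 9 members counted. Its groups there held 0 to 7 counts, so it could hardly pass. Macrophage markers (Adgre1, Csf1r, Cd68, Itgam, Lyz2 and Mertk) were above 0 in every group, and their summed level ran from 5791 CPM in a KO_M2 vehicle library to 48351 CPM in a WT_M1 library with AP-3-84. Cdkn1a, a p53 target, separated the genotypes at 555 to 1119 CPM in 18 WT and 34.1 to 292 CPM in 18 KO libraries. Nos2, a defining M1 gene, reached only 1.51 to 17.7 CPM in M1 libraries. It did not separate them from M2 libraries (0 to 7.33 CPM), but M0 libraries held at most 0.767 CPM. Retnla, a defining M2 gene, stood at 406 to 7902 CPM in M2 libraries and at most 6.55 CPM in the other bone marrow-derived libraries.

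Several libraries stood apart from their group or label. KO_M0 vehicle held the scavenger receptor gene Marco at 14.3 to 17.5 CPM, against 1171 to 2070 CPM in WT_M0 vehicle. In KO_M0 with AP-3-84, Marco was 2896, 2067 and 473 CPM in replicates 1, 2 and 3, so the third library lay between the others and the vehicle libraries. WT_M2 vehicle replicate 1 had the highest Marco (1089 CPM) and the lowest Retnla (456 CPM) of its group. KO_M2 vehicle replicate 1 had Retnla at 5858 CPM, against 455 and 406 CPM in replicates 2 and 3.

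Apoe was most abundant in KO_M0 vehicle, the group it was chosen by. Its levels there were 15350, 16019 and 19075 CPM, against 802, 1397 and 1689 CPM in WT_M0 vehicle, a log2 fold change of 3.70 in the fitted model that was not tested. No KO library outside M0 came near this. Apoe stood at 149, 167 and 67.8 CPM in KO_M1 vehicle and at 403, 80.4 and 63 CPM in KO_M2 vehicle. KO cells thus gave the highest level of the bone marrow-derived groups when unpolarized and the lowest group mean (128 ± 52.8 CPM, SD, n = 3) under M1 conditions.

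With AP-3-84, the KO_M0 libraries held Apoe at 5270, 1682 and 11757 CPM. All 3 lay below all 3 vehicle libraries, by a log2 fold change of -1.43 that was not tested, and the third library lay nearest to vehicle, as it did for Marco. In WT_M0 with AP-3-84, Apoe was 4713, 3436 and 1593 CPM. That group overlapped its vehicle group, and the log2 fold change of 1.33 (SE 0.796, adjusted p 0.615 by edgeR) did not pass the test.

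**Figure D1:**
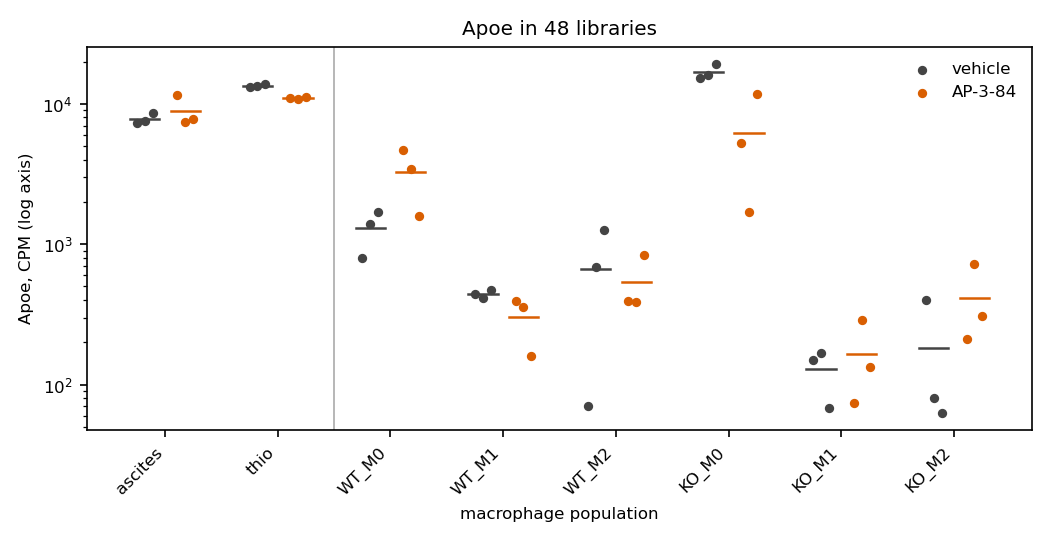
Apoe in each of the 48 libraries (points; CPM on a log axis) with the mean of each group (line), by population and treatment; the grey line parts peritoneal from bone marrow-derived libraries. The KO_M0 vehicle libraries, at 15350 to 19075 CPM, stand above all other bone marrow-derived libraries, and the KO_M1 and KO_M2 libraries, at 63 to 718 CPM, are among the lowest.

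In order of mean Apoe, the bone marrow-derived groups ran from KO_M0 vehicle (16815 ± 1990 CPM) through KO_M0 with AP-3-84 (6236 ± 5110), WT_M0 with AP-3-84 (3247 ± 1570) and WT_M0 vehicle (1296 ± 452) to the polarized groups (128 to 669). Only the first step in that order was free of overlap between neighbours. Each later group overlapped the next in its range of libraries. Groups further apart in the order could be free of overlap. WT_M1 vehicle (416 to 468 CPM) lay wholly below WT_M0 vehicle (802 to 1689 CPM). That difference was not called by edgeR in the main fit, but was with only those groups in the fit (log2 fold change -1.58, adjusted p 0.0133). Without a filter on low counts edgeR called it too (2.63e-16), as it did WT_M2 against WT_M0 (1.2e-06), whose groups overlapped. Polarized vehicle groups of WT held more Apoe on average than those of KO, at 444, 416 and 468 CPM in WT_M1 vehicle and 70.7, 683 and 1253 CPM in WT_M2 vehicle. The KO differences did not pass the test in M1 (log2 fold change -1.79 ± 0.816 SE, adjusted p 0.151 by edgeR) or in M2 (-1.88 ± 0.815 SE, adjusted p 0.201 by edgeR). Without KO_M2 vehicle replicate 1, the M2 difference was -3.22 and passed (adjusted p 0.0369 by edgeR). With only those groups in the fit the M1 difference passed (adjusted p 0.00694), and without a filter on low counts both did (9.54e-20 and 1.76e-22).

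The other apolipoprotein genes of the cluster were also highest in KO_M0 vehicle among bone marrow-derived groups. Apoc2, the lipase cofactor, stood at 150, 158 and 148 CPM there and at 17.9, 34.6 and 33 CPM in WT_M0 vehicle. The 2 groups were far apart with little spread in KO, and the difference passed the test (log2 fold change 2.42 ± 0.439 SE, adjusted p 0.000159 by edgeR). Apoc1 summed to 88 counts in KO_M0 vehicle (9.17, 12.6 and 3.25 CPM) and to 1 count in WT_M0 vehicle. In M1 and M2 vehicle libraries of KO, Apoc1 had 0 counts. These Apoc1 counts are a description only, since KO_M0 let the gene pass the filter, and they were not tested.

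Of the 7 genes tested between KO_M0 and WT_M0 vehicle libraries, 5 passed, 4 higher and 1 lower in KO. This was a comparison in which 33.2% of all genes passed. Mylip, the ligase that acts on lipoprotein receptors, was 39.6, 27.4 and 37.3 CPM in KO and 11, 7.17 and 11 CPM in WT (log2 fold change 1.84 ± 0.466 SE, adjusted p 0.0031 by edgeR). Abcg1 was 36.4, 30.2 and 20.3 CPM in KO and 7.18, 9.56 and 10.2 CPM in WT (log2 fold change 1.69 ± 0.363 SE, adjusted p 0.000702 by edgeR). The groups did not overlap for either gene. Abca1, at 195, 117 and 126 CPM in KO and 49.6, 96.5 and 80.3 CPM in WT, also did not overlap but was not called (log2 fold change 0.95 ± 0.526 SE, adjusted p 0.166 by edgeR). It was called with only those groups in the fit (adjusted p 0.0283) and without a filter on low counts (7.11e-05).

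The receptor genes moved in opposite directions between these groups. Nr1h3 (LXRα) fell from 41.5, 60.5 and 55.5 CPM in WT_M0 vehicle to 19.4, 21.2 and 27.3 CPM in KO_M0 vehicle (log2 fold change -1.21 ± 0.244 SE, adjusted p 0.000329 by edgeR). Nr1h2 (LXRβ) rose from 31.4, 37.5 and 38.8 CPM to 56.9, 73 and 67.3 CPM (log2 fold change 0.87 ± 0.185 SE, adjusted p 0.000584 by edgeR). The group in which Apoe, Apoc2, Abcg1 and Mylip were high thus had the lowest mean Nr1h3 transcript level of the 12 bone marrow-derived groups, although its range overlapped that of WT_M2 with AP-3-84, the next in order. Lpl was 1858, 1653 and 1458 CPM in KO and 2233, 1304 and 1278 CPM in WT, overlapped between the groups and did not pass (log2 fold change 0.05 ± 0.299 SE, adjusted p 0.921 by edgeR).

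Markers of other cells moved with this comparison. The fibroblast list (Col1a1, Col1a2, Col3a1, Pdgfra and Dcn) summed to 161 to 288 CPM in KO_M0 vehicle, with all 5 genes above 0, and to 22.5 to 26.2 CPM in WT_M0 vehicle, with Pdgfra at 0. In KO_M0 with AP-3-84 the sum was 50.6 to 223 CPM. The neutrophil list summed to 521 to 643 CPM in KO_M0 vehicle and 243 to 458 CPM in WT_M0 vehicle. The T cell list summed to 5.24 to 7.08 against 0.673 to 1.67 CPM, with 5 of its 6 genes at 0 in KO, and the eosinophil or mast cell list to 4.06 to 4.93 against 0 to 1.02 CPM. The macrophage sums, mostly Lyz2, overlapped (32126 to 38835 and 30106 to 38340 CPM), but other genes of that list did not. Csf1r was 4947 to 8054 CPM in KO and 1321 to 2192 CPM in WT, and Cd68 and Mertk were also higher in KO. Adgre1, which encodes F4/80, was 466 to 504 CPM in KO and 960 to 1184 CPM in WT, and Itgam was also lower in KO. Their part in the results was not tested, and in bulk RNA fewer cells of a type and less RNA per cell cannot be told apart.

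**Figure D2:**
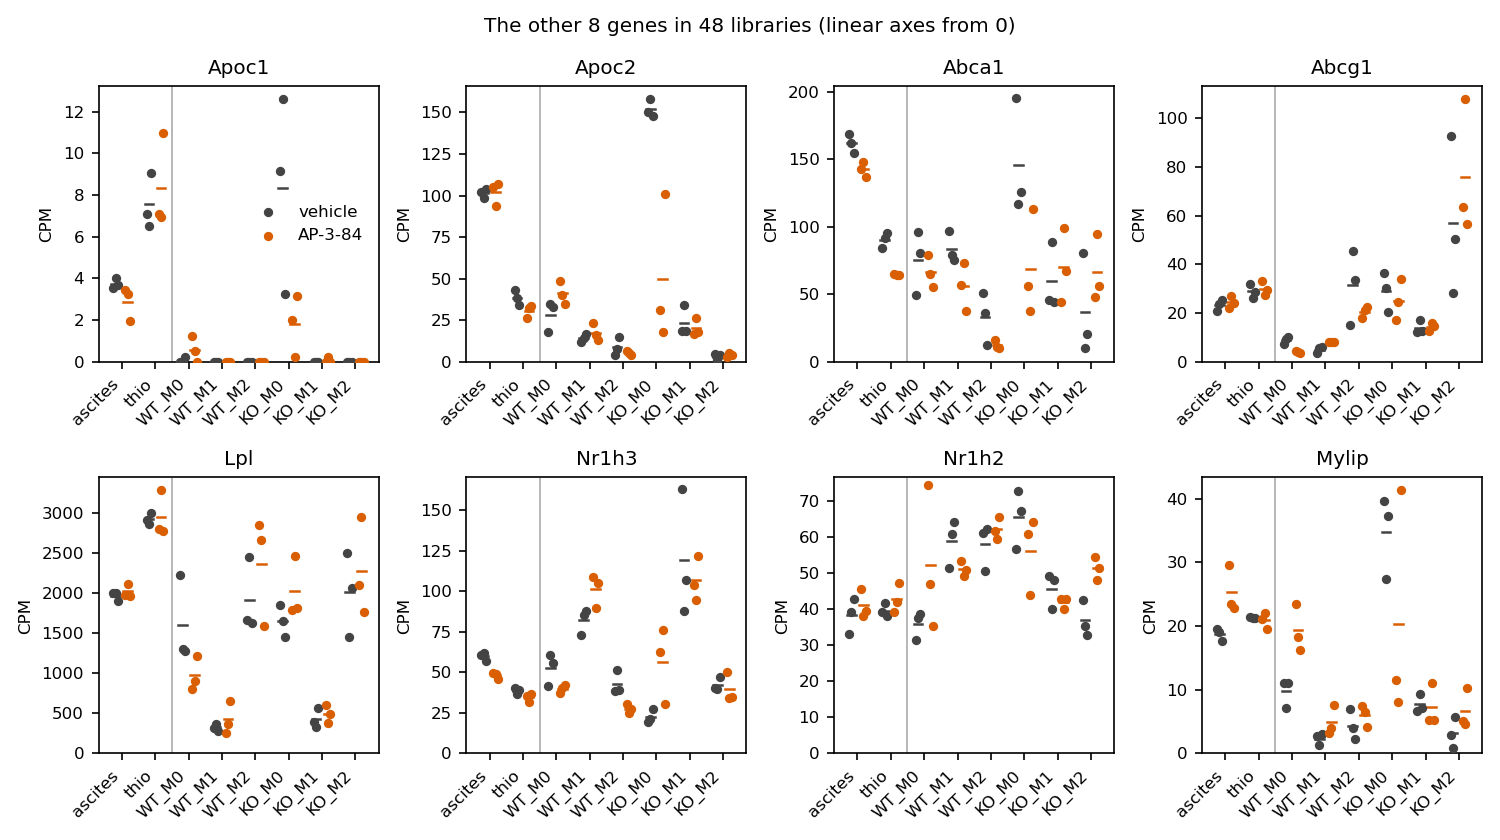
The other 8 genes in each of the 48 libraries (points; CPM, linear axes from 0) with group means (lines), by population and treatment; the grey line parts peritoneal from bone marrow-derived libraries. Apoc1, Apoc2, Abca1 and Mylip share a high KO_M0 vehicle group among bone marrow-derived libraries, Nr1h3 is lowest there (19.4 to 27.3 CPM), Abcg1 is highest in KO_M2 and Lpl is low in M1 (252 to 652 CPM).

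Fewer members passed between genotypes in the polarized groups. In M1, where 11.6% of all genes differed between KO and WT, 1 of 9 members passed: Abcg1 was 12.1, 17 and 12.7 CPM in KO and 3.58, 5.56 and 6.04 CPM in WT (log2 fold change 1.44 ± 0.403 SE, adjusted p 0.0181 by edgeR). That call was lost without WT_M1 vehicle replicate 1 (adjusted p 0.0942) or replicate 2 (0.0551). Mylip, at 6.59, 9.37 and 7.14 CPM in KO_M1 and 2.68, 1.32 and 3.02 CPM in WT_M1, did not overlap between the genotypes and just missed the threshold (log2 fold change 1.70 ± 0.581 SE, adjusted p 0.0525 by edgeR). It was called by DESeq2 (adjusted p 0.0209), with only those groups in the fit (0.0146), under scaling by total counts (0.0229) and without a filter on low counts (0.000737). In M2, where 3.56% of all genes passed, only Nr1h2 did, at 42.5, 35.4 and 33 CPM in KO and 61.2, 50.7 and 62.4 CPM in WT (log2 fold change -0.65 ± 0.186 SE, adjusted p 0.0412 by edgeR). This call was lost in 7 of 12 alternatives, with adjusted p from 0.0189 to 0.26, among them leaving out replicate 1 or 3 of WT_M2 vehicle (0.0998 and 0.109) and replicate 2 or 3 of KO_M2 vehicle (0.141 and 0.216). Marker sums differed between the genotypes here too. Macrophage sums were lower in KO in M1 (15474 to 24846 against 43210 to 46131 CPM) and in M2 (5791 to 18404 against 24904 to 30917 CPM). These sums were mostly Lyz2. In M1, Adgre1, Itgam and Mertk were also lower in KO without overlap, and Csf1r and Cd68 overlapped. In M2, Adgre1 and Cd68 were also lower, and Csf1r, Itgam and Mertk overlapped. In M1 the KO sums were higher for fibroblast genes (89.9 to 123 against 16.6 to 41.9 CPM). They were also higher for neutrophil genes, mostly S100a8 and S100a9 (962 to 2377 against 430 to 560 CPM). The part of these markers was not tested.

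M1 conditions lowered Lpl in both genotypes. In WT, Lpl went from 2233, 1304 and 1278 CPM in M0 to 322, 366 and 285 CPM in M1 (log2 fold change -2.31 ± 0.314 SE, adjusted p 1.12e-05 by edgeR). In KO, it went from 1858, 1653 and 1458 CPM to 392, 335 and 564 CPM (log2 fold change -1.94 ± 0.31 SE, adjusted p 1.32e-05 by edgeR). Against M2, M1 Lpl was lower by log2 fold changes of -2.56 in WT and -2.23 in KO (edgeR adjusted p 4.81e-07 and 4.45e-06). The M1 and M0 groups, and the M1 and M2 groups, did not overlap in either genotype.

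Abcg1, in contrast, was highest under IL-4 and IL-13. In WT it stood at 15, 45.5 and 33.6 CPM in M2, against 7.18, 9.56 and 10.2 CPM in M0 (log2 fold change 1.80 ± 0.363 SE, adjusted p 0.000462 by edgeR) and 3.58, 5.56 and 6.04 CPM in M1 (M1 minus M2 -2.61 ± 0.392 SE, adjusted p 5.61e-06 by edgeR). In KO it stood at 92.6, 28.4 and 50.3 CPM in M2, above M1 without overlap (M1 minus M2 -2.03 ± 0.346 SE, adjusted p 4.23e-05 by edgeR). The KO rise from M0 to M2 (log2 fold change 0.97, adjusted p 0.02 by edgeR) came with overlapping groups. It was lost without KO_M2 vehicle replicate 1 (log2 fold change 0.44, adjusted p 0.289), without KO_M0 vehicle replicate 3 (0.76, adjusted p 0.12) and with only those groups in the fit (adjusted p 0.11).

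Nr1h3 was highest in M1. WT_M1 vehicle held 73, 85.6 and 88.1 CPM and WT_M2 vehicle 38.4, 51.6 and 38.9 CPM (log2 fold change 0.94 ± 0.235 SE, adjusted p 0.00281 by edgeR). KO_M1 vehicle held 163, 87.6 and 107 CPM, and KO_M2 vehicle 40.1, 39.6 and 47.4 CPM (log2 fold change 1.49 ± 0.234 SE, adjusted p 1.14e-05 by edgeR). From KO_M0 vehicle, where Nr1h3 was low, it rose to M1 by 2.39 (SE 0.246, adjusted p 1.05e-08 by edgeR) and to M2 by 0.90 (SE 0.245, adjusted p 0.00412 by edgeR). The WT difference of M1 from M0 was 0.65 and was not called (SE 0.231, adjusted p 0.052 by edgeR), but was with only those groups in the fit (adjusted p 0.0098) and without a filter on low counts (0.0315).

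Nr1h2 moved from M0 in opposite directions in the 2 genotypes. In WT it rose to M1 (51.6, 60.9 and 64.4 CPM) by 0.72 and to M2 (61.2, 50.7 and 62.4 CPM) by 0.69 (SE 0.185 and 0.186, edgeR adjusted p 0.00742 and 0.00616). In KO it fell to M1 (49.2, 40 and 48.2 CPM) and to M2 (42.5, 35.4 and 33 CPM), by log2 fold changes of -0.52 and -0.83 (edgeR adjusted p 0.021 and 0.000664). Both WT calls were lost under scaling by total counts (adjusted p 0.113 and 0.0565), which moved the median of all genes by -0.30 and -0.21 in these contrasts. The KO fall to M1 was lost without a filter on low counts (adjusted p 0.0826) and without KO_M0 vehicle replicate 2 (0.0983) or 3 (0.0625) or KO_M1 vehicle replicate 2 (0.105).

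Apoc2 was lowest in M2. In WT it went from 17.9, 34.6 and 33 CPM in M0 to 3.9, 7.54 and 14.9 CPM in M2 (log2 fold change -1.71 ± 0.49 SE, adjusted p 0.0117 by edgeR), a call lost without WT_M2 vehicle replicate 1 (-1.36, adjusted p 0.0673) or replicate 2 (-1.61, adjusted p 0.0501). In KO it went from 150, 158 and 148 CPM in M0 to 4.51, 0.901 and 3.97 CPM in M2 (log2 fold change -5.62 ± 0.553 SE, adjusted p 1.72e-08 by edgeR), with 18.4, 34.2 and 18.3 CPM in M1 (log2 fold change -2.69 from M0, adjusted p 2.4e-05 by edgeR). The KO groups formed 3 levels without overlap, and M1 was above M2 by 2.93 (SE 0.553, adjusted p 0.000213 by edgeR).

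Mylip fell from M0 to M1 in WT, from 11, 7.17 and 11 CPM to 2.68, 1.32 and 3.02 CPM (log2 fold change -2.04 ± 0.57 SE, adjusted p 0.0135 by edgeR). That call was lost without WT_M1 vehicle replicate 2 (-1.76, adjusted p 0.0788). In KO, Mylip fell from 39.6, 27.4 and 37.3 CPM to 6.59, 9.37 and 7.14 CPM in M1 and to 2.92, 0.901 and 5.7 CPM in M2 (log2 fold changes -2.17 and -3.46, edgeR adjusted p 0.000487 and 7.18e-06). Abca1 fell from KO_M0 to KO_M2 vehicle, where it was 80.4, 10.4 and 20.3 CPM (log2 fold change -1.99 ± 0.548 SE, adjusted p 0.00583 by edgeR). Replicate 1 of KO_M2 vehicle was again the high one, the fall was -3.25 without it, and the call was lost with only those 2 groups in the fit (adjusted p 0.125). Abcg1 fell from KO_M0 to KO_M1 by -1.05 (adjusted p 0.0147 by edgeR) and was not called without KO_M0 vehicle replicate 1 (0.0832) or KO_M1 vehicle replicate 1 (0.0566) or 3 (0.0553).

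Set against the background, the members' counts were as follows. In WT, 3 of 9 members passed in M1 against M0, where 15.5% of all genes did, 3 in M2 against M0 (23.4% of all genes) and 3 in M1 against M2 (25.5%). Without WT_M2 vehicle replicate 1, Abca1 was also called higher in M1 than in M2 (1.76, adjusted p 0.0465 by edgeR). In KO, 6 of 7 passed in M1 against M0 (44.5% of all genes), 6 of 7 in M2 against M0 (38% of all genes) and 4 of 9 in M1 against M2 (25.4%). Without KO_M2 vehicle replicate 1, Abca1 was called higher in KO_M1 than in KO_M2 (1.96, adjusted p 0.0115 by edgeR). Those KO comparisons share the KO_M0 vehicle libraries with the comparison of KO with WT above. The summed macrophage markers also differed along them, from 32126 to 38835 CPM in KO_M0 vehicle to 15474 to 24846 in KO_M1 and 5791 to 18404 in KO_M2. These sums were mostly Lyz2. From KO_M0 to KO_M1 vehicle, mean Lyz2, Csf1r, Cd68 and Mertk fell. Adgre1 rose from 485 to 1359 CPM and Itgam from 225 to 611 CPM. The neutrophil sums were 521 to 643, 962 to 2377 and 319 to 3052 CPM in KO_M0, KO_M1 and KO_M2 vehicle. The fibroblast sums were 161 to 288, 89.9 to 123 and 47.5 to 78.6 CPM in that order. Of the fibroblast list, Dcn alone had a higher mean in KO_M1 (13.2 CPM) than in KO_M0 vehicle (0.629 CPM). In WT, macrophage sums were 30106 to 38340 CPM in M0, 43210 to 46131 in M1 and 24904 to 30917 in M2. Fibroblast sums were 22.5 to 26.2 CPM in M0 and 35.9 to 54.0 in M2. The epithelial list summed to 1.12 to 1.79 CPM in M0 and 44.9 to 57.9 in M2. In both groups that sum was Cdh1 alone, with Epcam, Krt8, Krt18, Krt19 and Muc16 at 0. The part of these markers in the members' differences was not tested.

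The difference between KO and WT in the response to polarization was tested directly. For the step from M0 to M1, 2 of 7 members differed (20.7% of all genes): Nr1h3 rose more in KO (difference 1.74 ± 0.333 SE, adjusted p 0.000305 by edgeR) and Nr1h2 went down in KO and up in WT (difference -1.24 ± 0.26 SE, adjusted p 0.000876 by edgeR). For the step from M0 to M2, 4 of 7 differed (27.1% of all genes). These were Apoc2 (-3.91 ± 0.739 SE, adjusted p 0.000376 by edgeR), Nr1h2 (-1.52 ± 0.262 SE, adjusted p 8.26e-05 by edgeR), Nr1h3 (1.19 ± 0.339 SE, adjusted p 0.00968 by edgeR) and Mylip (-2.33 ± 0.752 SE, adjusted p 0.0221 by edgeR). The Mylip call was lost without WT_M0 vehicle replicate 2 (adjusted p 0.0523), WT_M2 vehicle replicate 1 (0.107) or KO_M2 vehicle replicate 2 (0.0678). Without KO_M2 vehicle replicate 1, Abca1 (-2.08) and Abcg1 (-1.35) were also called, both at an adjusted p of 0.0251. Between M1 and M2, 2.87% of all genes and 0 of 9 members differed in edgeR, and DESeq2 called 1 member. An unadjusted p under 0.05 was reached there by 2 members and by 2241 of 11779 genes.

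In the peritoneum, ascites and thio macrophages differed in 33.7% of all genes and in 7 of 9 members. Apoc2 and Abca1 were higher in ascites macrophages, and Apoe, Apoc1 and Lpl were lower. Apoc2 was 102, 98.7 and 104 CPM in ascites and 43, 38.6 and 34.2 CPM in thio vehicle libraries (log2 fold change 1.40 ± 0.101 SE, adjusted p 5.08e-09 by edgeR). Abca1 was 169, 162 and 155 CPM against 84.2, 91.8 and 95.4 CPM (log2 fold change 0.84 ± 0.065 SE, adjusted p 1.32e-08 by edgeR). Apoc2 and its neighbours Apoe and Apoc1 thus differed in opposite directions between these peritoneal groups.

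Apoe was 7311, 7552 and 8554 CPM in ascites and 13112, 13425 and 13923 CPM in thio vehicle libraries (log2 fold change -0.79 ± 0.15 SE, adjusted p 0.00225 by edgeR). Apoc1 was 3.53, 4.04 and 3.69 CPM against 7.09, 6.5 and 9.06 CPM (log2 fold change -1.01 ± 0.246 SE, adjusted p 0.00365 by edgeR). The groups were apart in every library for both genes. Lpl was lower by -0.57 (adjusted p 1.25e-06 by edgeR), at 1969 ± 60.1 CPM in ascites and 2931 ± 71.3 CPM in thio (SD, n = 3). Nr1h3 was higher in ascites (61, 62.1 and 57.2 against 40.3, 36.7 and 39.1 CPM, log2 fold change 0.64, adjusted p 7.53e-06 by edgeR). Abcg1 was lower (-0.32, adjusted p 0.0448 by edgeR), a call lost in 6 of 12 alternatives with adjusted p from 0.028 to 0.197, among them leaving out replicate 1 or 2 of ascites vehicle (0.187 and 0.0927) or replicate 1 or 3 of thio vehicle (0.194 and 0.0877). Nr1h2 and Mylip did not pass.

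Strain label, tumour and thioglycollate cannot be told apart in that comparison. All ascites libraries carry the B6(Cg)-Tyrc-2J/J label and came from mice with ID8, and no thio library did. All thio libraries came from mice given thioglycollate, and no ascites library did. Markers of other peritoneal cells differed with it. The epithelial or ID8 list (Epcam, Krt8, Krt18, Krt19, Muc16 and Cdh1) summed to 146 to 174 CPM in ascites and 3.15 to 5.17 CPM in thio vehicle libraries, where Epcam was at 0. The mesothelial list (Msln, Upk3b, Wt1 and Lrrn4) summed to 66 to 76.2 and 1.28 to 1.64 CPM, with Msln at 0 in thio. Fibroblast sums were also higher in ascites (38.0 to 56.1 against 18.4 to 29.3 CPM). Neutrophil sums (29.1 to 34.0 against 61.7 to 65.3 CPM) and macrophage sums (28308 to 30152 against 34253 to 34715 CPM) were lower, and none of these ranges overlapped. The neutrophil sums were almost all S100a8 (mean 31.6 and 63.7 CPM), with Ly6g, Mpo, Elane and Camp at 0 in thio. Of the macrophage list, Lyz2, Cd68 and Mertk were lower in ascites, Csf1r and Itgam were higher, and Adgre1 overlapped. The part of these markers in the members' differences was not tested.

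Over the 8 comparisons of AP-3-84 with vehicle, 3 of 70 tests of a member passed (4.29%), a share near the 3.48% of all tests of a gene that passed there. The 70 include tests of Apoc1 between bone marrow-derived groups with 0 to 7 counts, which could hardly pass. Of those 70 tests of a member, 14 had an unadjusted p under 0.05. Among all genes, 206 (KO_M1) to 4003 (KO_M0) of 11779 did in the bone marrow-derived comparisons. In the peritoneal ones, 1804 (ascites) and 2665 (thio) of 16955 did. In thio macrophages, where 4.32% of all genes passed, 1 of 9 members did. Abca1, the transporter gene, fell from 84.2, 91.8 and 95.4 CPM to 64.8, 64.3 and 64.1 CPM (log2 fold change -0.49 ± 0.0658 SE, adjusted p 0.000217 by edgeR). The groups did not overlap and the call held in each of 12 alternatives. Apoe was also lower in all 3 treated thio libraries (11034, 10898 and 11239 CPM) than in vehicle, by -0.29, but was not called (SE 0.149, adjusted p 0.407 by edgeR) unless only those groups were fitted (adjusted p 0.00163). Marker sums moved with treatment in thio, where macrophage genes went from 34253 to 34715 CPM with vehicle to 27557 to 32720 CPM with the compound. The neutrophil sums, almost all S100a8, went from 61.7 to 65.3 CPM to 51.6 to 58.6 CPM. Fibroblast sums went from 18.4 to 29.3 CPM to 29.4 to 43.9 CPM. Sums of dendritic cell genes (29.3 to 31.4 CPM to 31.7 to 36.9 CPM) also parted, and the part of these cells was not tested.

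In ascites macrophages, 1.79% of all genes passed and no member did in edgeR. An unadjusted p under 0.05 was reached by 3 members and by 1804 of 16955 genes. DESeq2 called 1 member, Nr1h3 (adjusted p 0.0336). Scaling by total counts also called Nr1h3 (0.0238). Nr1h3 was 49.8, 48.9 and 46.1 CPM with the compound and 61, 62.1 and 57.2 CPM with vehicle, without overlap (log2 fold change -0.32 ± 0.0815 SE, adjusted p 0.0642 by edgeR). Mylip was 29.6, 23.5 and 22.8 CPM with the compound and 19.6, 19 and 17.7 CPM with vehicle (log2 fold change 0.43 ± 0.112 SE, adjusted p 0.0671 by edgeR), and was called without ascites AP-3-84 replicate 3 (0.0475). Abca1 there was lower by -0.19 (SE 0.0643, adjusted p 0.23 by edgeR). The difference between the Abca1 responses of ascites and thio macrophages did not pass (0.30 ± 0.0919 SE, adjusted p 0.434 by edgeR). Macrophage sums in ascites were 23499 to 28149 CPM with the compound and 28308 to 30152 CPM with vehicle, and their part was not tested. In the contrast of responses, 0.118% of all genes and 0 of 9 members passed in edgeR, and DESeq2 called 0 members. An unadjusted p under 0.05 was reached there by 4 members and by 1295 of 16955 genes.

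**Figure D3:**
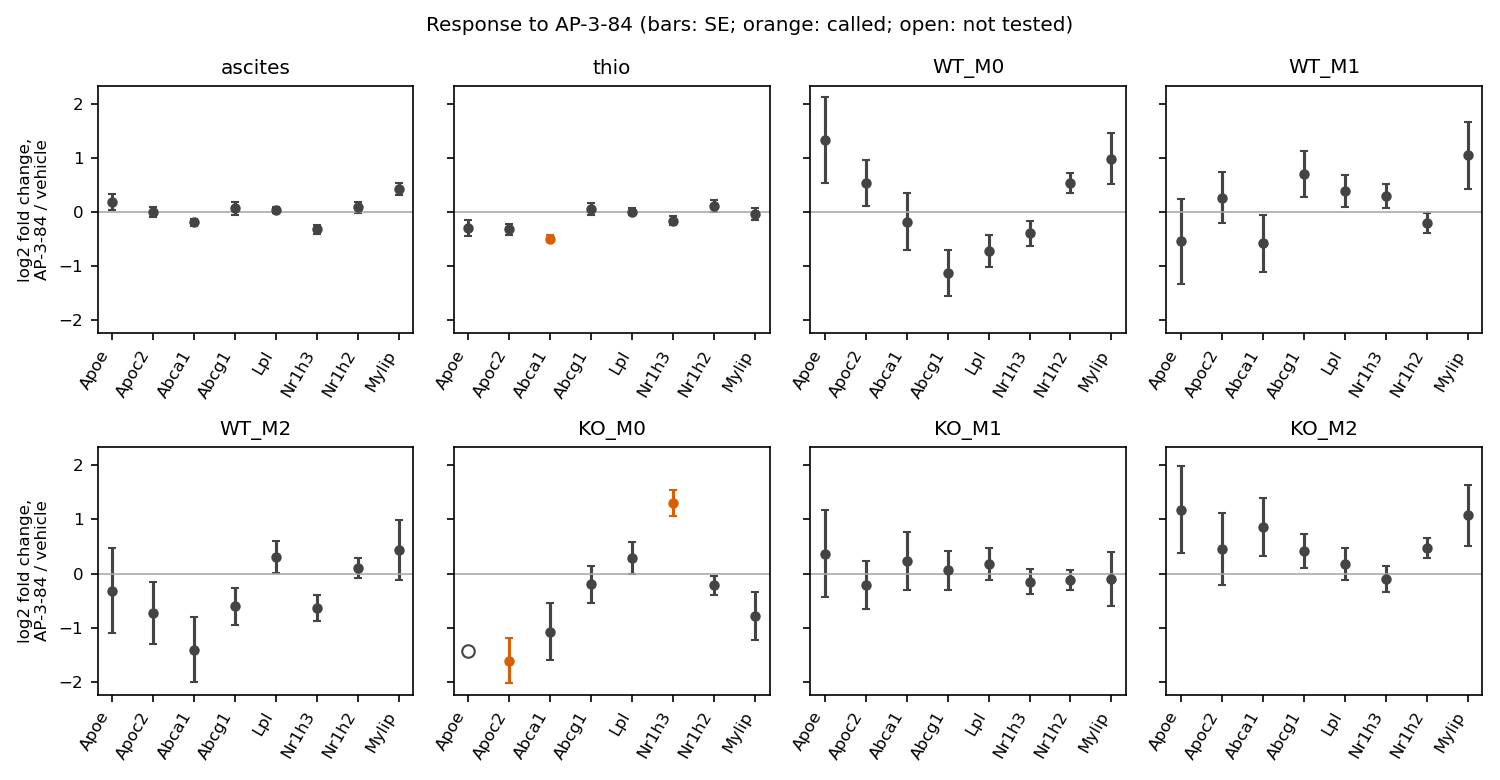
Log2 fold change of AP-3-84 against vehicle (points) with its SE (bars) for 8 genes in 8 populations; Apoc1 is left out for its low counts, orange marks an edgeR adjusted p under 0.05, and the open point is Apoe in KO_M0, not tested. Called values are Abca1 in thio (-0.49) and Apoc2 (-1.61) and Nr1h3 (1.31) in KO_M0, and the bars of bone marrow-derived populations are wider than those of peritoneal ones.

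In KO_M0, where 20.7% of all genes passed, 2 of 7 members did. Nr1h3 rose from 19.4, 21.2 and 27.3 CPM to 62.4, 76.2 and 30.2 CPM (log2 fold change 1.31 ± 0.244 SE, adjusted p 0.000273 by edgeR). Apoc2 fell from 150, 158 and 148 CPM to 31.3, 18 and 101 CPM (log2 fold change -1.61 ± 0.423 SE, adjusted p 0.00785 by edgeR). For both genes the groups did not overlap, and the third treated library lay nearest to vehicle. The rise of Nr1h3 held in each of 12 alternatives. The fall of Apoc2 was -1.36 without KO_M0 AP-3-84 replicate 1 and -1.20 without replicate 2, where the call was lost (adjusted p 0.0614 and 0.0631), and -2.62 at its largest over the alternatives. The call was also lost with only those 2 groups in the fit (adjusted p 0.143).

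Mylip and Abca1 showed the same order among the treated KO_M0 libraries. Mylip was 11.6, 8.14 and 41.3 CPM with the compound, so that the third library was above all vehicle libraries, and Abca1 was 56.3, 38 and 113 CPM, all below vehicle. Neither was called (log2 fold change -0.78, adjusted p 0.22 by edgeR, and -1.08, adjusted p 0.15 by edgeR). Without the third treated library, Abca1 (-1.63, adjusted p 0.0429) and Mylip (-1.81, adjusted p 0.00204) were called. Apoc1 had 88 counts with vehicle and 21 with the compound, a difference that was not tested. Lpl, Abcg1 and Nr1h2 overlapped between treatments, with log2 fold changes from -0.22 to 0.29. The summed macrophage markers, mostly Lyz2, were 17669 to 38565 CPM with the compound and 32126 to 38835 CPM with vehicle. Other genes of that list parted without overlap. Csf1r was 1452 to 3810 CPM with the compound and 4947 to 8054 CPM with vehicle, and Cd68 and Mertk were also lower. Adgre1 was 657 to 2408 CPM with the compound and 466 to 504 CPM with vehicle, and Itgam was also higher. The fibroblast sums were 50.6 to 223 CPM with the compound and 161 to 288 CPM with vehicle. Without overlap, neutrophil sums went from 521 to 643 CPM with vehicle to 269 to 424 CPM with the compound, T cell sums from 5.24 to 7.08 CPM to 0.247 to 3.54 CPM, and eosinophil or mast cell sums from 4.06 to 4.93 CPM to 1.06 to 3.28 CPM. Their part was not tested.

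**Figure D4:**
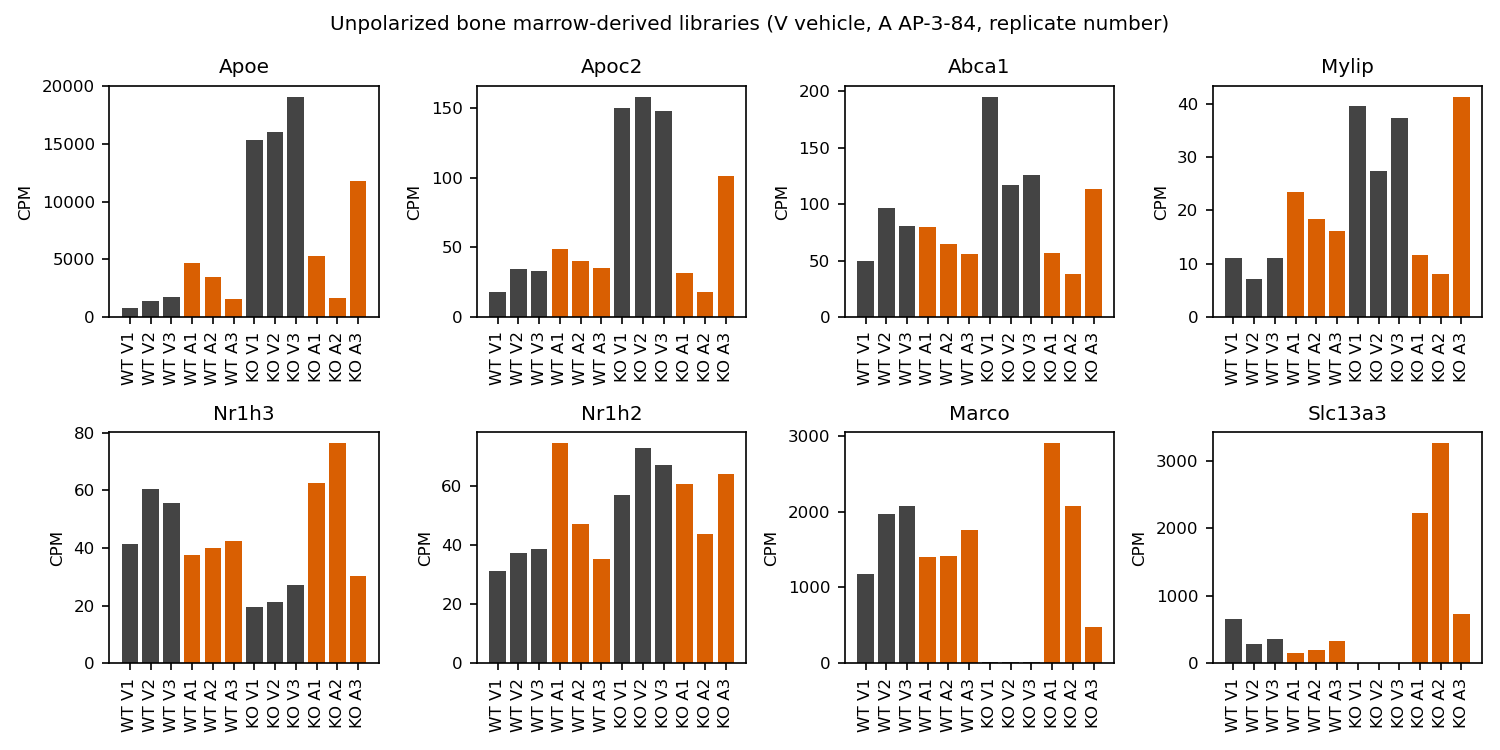
Levels (bars; CPM, linear axes from 0) of 6 members and of Marco and Slc13a3 in each of the 12 unpolarized bone marrow-derived libraries, in order of genotype, treatment (V, vehicle; A, AP-3-84) and replicate number. The third KO library with AP-3-84 (KO A3) lies between the KO vehicle libraries and the other KO libraries with AP-3-84 for Apoe (11757 CPM), Apoc2 (101 CPM), Nr1h3 (30.2 CPM), Marco (473 CPM) and Slc13a3 (737 CPM).

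The remaining bone marrow-derived populations gave no member call for AP-3-84 in edgeR or DESeq2. In WT_M0, 0.144% of all genes passed. An unadjusted p under 0.05 was reached there by 4 members and by 1107 of 11779 genes. Abcg1 was 4.5, 4.19 and 3.54 CPM with the compound and 7.18, 9.56 and 10.2 CPM with vehicle (log2 fold change -1.13 ± 0.425 SE, adjusted p 0.401 by edgeR), and Mylip was 23.5, 18.3 and 16.2 CPM against 11, 7.17 and 11 CPM (0.99 ± 0.468 SE, adjusted p 0.506 by edgeR). Neither gene overlapped between treatments, yet neither passed over all genes. In WT_M1, 0.017% of all genes passed, and no member but 857 genes in all reached an unadjusted p under 0.05. In WT_M2, 1.21% passed, and 2 members and 1386 genes in all reached such a p. In KO_M1, 0% of all genes were called by edgeR or DESeq2, although 206 had an unadjusted p under 0.05, and none of these was a member. In KO_M2, 0.0509% of all genes passed and 1 member, Nr1h2, had an unadjusted p under 0.05 (0.48, SE 0.186, adjusted p 0.275 by edgeR). In all, 1454 genes had such an unadjusted p there.

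A miss of the threshold in these populations left wide room for change. For Apoe, the 95% interval of the response ran from -0.23 to 2.88 on the log2 scale in WT_M0, from -2.09 to 1.01 in WT_M1, from -1.86 to 1.23 in WT_M2, from -1.19 to 1.94 in KO_M1 and from -0.39 to 2.75 in KO_M2. In peritoneal libraries the same interval was narrower, from -0.10 to 0.48 in ascites and from -0.58 to 0.01 in thio. In KO_M2, Apoe was 403, 80.4 and 63 CPM with vehicle and 211, 718 and 309 CPM with the compound. Without KO_M2 vehicle replicate 1, Abca1 was called higher with the compound there (2.12, adjusted p 0.0266).

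The response to AP-3-84 differed between KO and WT in M0 for 3 of 7 members, where 17% of all genes passed. Nr1h3 rose in KO and was lower by -0.39 without a call in WT (difference 1.70 ± 0.338 SE, adjusted p 0.000964 by edgeR). Apoc2 fell in KO and was higher by 0.54 without a call in WT (difference -2.15 ± 0.604 SE, adjusted p 0.0152 by edgeR). Nr1h2 also differed (-0.77 ± 0.26 SE, adjusted p 0.0389 by edgeR), with WT_M0 at 74.5, 47.2 and 35.4 CPM with the compound. The Apoc2 call was lost without WT_M0 vehicle replicate 1 (adjusted p 0.0519) and with only those groups in the fit (0.0783), and the Nr1h2 call in 9 of 18 alternatives (adjusted p from 0.00567 to 0.265). Those were the fit of only those groups, the fit without a filter on low counts, and leaving out WT_M0 vehicle replicate 1 or 2, WT_M0 AP-3-84 replicate 1, KO_M0 vehicle replicate 2 or 3, or KO_M0 AP-3-84 replicate 1 or 2. Without KO_M0 AP-3-84 replicate 3, Mylip was also called (-2.80, adjusted p 0.000523). In M1, 0.00849% of all genes differed and no member did in edgeR, at an unadjusted p under 0.05 or in DESeq2. Such an unadjusted p was reached by 831 of 11779 genes. In M2, 1.77% of all genes and 0 of 9 members differed in edgeR, and DESeq2 called 0 members. An unadjusted p under 0.05 was reached there by 2 members and by 1815 of 11779 genes. Without KO_M2 vehicle replicate 1, Abca1 (3.53, adjusted p 0.00435 by edgeR) and Abcg1 (1.55, adjusted p 0.0295 by edgeR) were called in M2.

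The genes most like Apoe were taken by Pearson's r of mean log2(CPM + 1) over the 12 bone marrow-derived groups, among 8430 genes. They were Herc4 (0.965), Slc9a9 (0.964), Selenop (0.962), Ddi2 (0.961) and Stard9 (0.958). Selenop, which encodes a secreted selenium carrier, stood at 1523 ± 267 CPM in KO_M0 vehicle, 330.0 ± 47.3 in WT_M0 vehicle and 113 ± 78.2 in KO_M2 vehicle (SD, n = 3), and Slc9a9 at 162 ± 13.4, 38.2 ± 14.3 and 12.4 ± 1.62 CPM. Among the members, Apoc1 (0.854), Mylip (0.835) and Apoc2 (0.751) were most like Apoe, while Abcg1 (-0.098) and Nr1h3 (-0.603) were not. These values describe 12 points that share the KO_M0 vehicle group and the same libraries for every gene.

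Other genes of the pathway, 54 by a list chosen with earlier results known, were described by counts. In KO against WT in M0, 15 were higher and 3 lower of 41 tested (43.9%, against 33.2% of all genes), with a median log2 fold change of 0.33 (0.03 over all genes). Rxra, the receptor partner, was higher by 1.29 (adjusted p 3e-05 by edgeR), Pltp, the phospholipid transfer protein, by 3.37 (4.39e-05), and Arl4c, an LXR target, by 1.60 (0.000166, shared with Angptl4, a lipase inhibitor, at 4.14). Receptor partners and cofactors gave 4 higher of 9, other LXR targets 5 of 12, and cholesteryl ester storage and release genes 4 of 6. Ch25h, the enzyme that makes 25-hydroxycholesterol, went the other way, with 116 counts in all in WT_M0 vehicle and 0 in KO_M0 vehicle.

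With AP-3-84 in KO_M0, 3 listed genes were higher and 13 lower of 41 (39%, against 20.7% of all genes), with a median of -0.21 (-0.03 over all genes). All 6 genes of cholesteryl ester storage and release, Soat1, Nceh1, Lipa, Npc1, Npc2 and Plin2, fell, with a median of -0.78. The lowest p values were those of Arl4c (-1.47, adjusted p 0.000731 by edgeR), Nceh1, a cholesteryl ester hydrolase (-1.12, 0.00101), and Mertk, a receptor for dead cells and an LXR target that is also on the macrophage list (-1.88, 0.00127). In thio, 1 was higher and 2 lower of 44 (6.82%, against 4.32%): Lrp8, an ApoE receptor gene (0.91, adjusted p 0.000443 by edgeR), Mertk (-0.30, 0.0134) and Cyp27a1, which makes 27-hydroxycholesterol (-0.68, 0.0148). In WT_M0, Lrp8 was the single listed gene called (1.63, adjusted p 0.0228 by edgeR).

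Between ascites and thio, 9 listed genes were higher and 13 lower of 44 (50%, against 33.7% of all genes). The lowest p values were those of Lrp1, a receptor for ApoE (-1.70, adjusted p 1.72e-12 by edgeR), Soat1, which esterifies cholesterol (-1.10, 1.81e-11), and Npc1, which exports it from lysosomes (-1.19, 3.53e-11). Of the 6 genes of cholesteryl ester storage and release, 5 were lower in ascites and Npc2 was higher (0.84). Other LXR targets gave 6 higher and 1 lower of 14. The listed genes thus differed in both directions between these populations, as the members did.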

How the data were processed

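RNA of 48 mouse macrophage libraries was measured with QuantSeq FWD 3′ mRNA libraries made from 100 ng of RNA and read as single 75-base reads, per the labels' protocols. The deposited table holds raw counts per Ensembl gene ID. RSEM, Bowtie2 and DESeq2 are named without version or role in the submitters' processing notes. No source used here gives the build or annotation, says how molecular identifiers were handled, or says whether estimated counts were rounded, though all values were whole numbers. A 3′ read marks a transcript's end, so CPM is not divided by length and levels are compared within a gene. A gene ID table gave symbols (51596 of 51789 matched), and coordinates from GENCODE M21 (GRCm38), which may not be the build behind the counts.

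Counts were tested in edgeR 4.0.16 (R 4.3.3; quasi-likelihood test, filterByExpr by group, TMM, robust dispersion, 1 mean per group, no block). The 12 peritoneal and 36 bone marrow-derived libraries were fitted apart, with 16955 and 11779 genes tested and biological coefficients of variation of 0.168 and 0.225. Genes were called at a two-sided Benjamini-Hochberg adjusted p under 0.05 over all genes of a comparison. The 25 comparisons were 8 of AP-3-84 with vehicle, 10 between vehicle groups, 4 differences of AP-3-84 responses and 3 of polarization responses. CPM use TMM-scaled totals, and SE is the log2 fold change over the square root of its F statistic. The scripts were tested on simulated data. No 2 replicates were near-identical: chi-square per gene averaged 2.51 to 38.7 in the 48 pairs, above counting noise.

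The members, gene lists and rules were chosen with earlier results of these data known. All 9 members are named, with at most 3 listed pathway genes per comparison, those with the lowest p. Ch25h, Angptl4, the 6 cholesteryl ester genes, Marco and Slc13a3 were named after their values were seen. Genes like Apoe needed an average log2 CPM of 3, and promoters came from RefSeq. Alternatives were DESeq2 1.42.0, scaling by median ratios or by total counts, keeping genes with low counts, fitting only the groups compared, blocking by replicate number, and dropping each library in turn.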

Additional observations from a re-analysis of the deposited data

Results flagged for a closer look

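The AP-3-84 response in M0 differed between KO and WT for Nr1h3 (difference of log2 fold changes 1.70), Apoc2 (-2.15) and Nr1h2 (-0.77), each by the test of that difference in edgeR. Nr1h3 was higher with the compound in 3 of 3 KO libraries and Apoc2 lower in 3 of 3, relative to all KO vehicle libraries.

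Polarization responses differed between KO and WT for 6 member values by the same kind of test. From M0 to M1 these were Nr1h3 (1.74) and Nr1h2 (-1.24), and from M0 to M2 they were Nr1h3 (1.19), Apoc2 (-3.91), Mylip (-2.33) and Nr1h2 (-1.52). All 9 differences use the KO_M0 vehicle libraries, the group Apoe was chosen by, so they are not independent of one another.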

How the results depend on the processing

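Of 51 member calls, 36 held under every alternative run and the rest were lost in at least 1. Not among them are 3 calls of Apoc1 against KO_M0 vehicle, which the results above leave out and which DESeq2 lost. Over 702 refits of the calls, here with those 3 included, 51 missed the threshold and 0 changed direction. Without a filter on low counts, calls rose from 3 to 11 for AP-3-84 against vehicle, from 3 to 8 for differences between AP-3-84 responses and from 6 to 11 for differences between polarization responses, and the cause was not tested. Apoe in WT_M0 was among those gained (adjusted p 6.4e-11), although its groups overlapped. Leaving out 1 library gave 2 to 6 calls for AP-3-84 (6 without KO_M0 AP-3-84 replicate 3) and 40 to 43 between vehicle groups (42 with all). For differences between AP-3-84 responses it gave 1 to 5 (1 without WT_M0 vehicle replicate 1, 5 without KO_M0 AP-3-84 replicate 3 or KO_M2 vehicle replicate 1), and for polarization 5 to 8. These counts include Apoc1 in comparisons with KO_M0 vehicle. With Apoc1 left out, the refit without KO_M0 AP-3-84 replicate 3 called 4 of 7 members for AP-3-84 in KO_M0. For the M0 difference of responses, that refit also called 4 of 7. Scaling by total counts moved the median of all genes by -0.30 to 0.27 over the comparisons. Same-numbered libraries did not deviate together (median r -0.025 in peritoneal and 0.00044 in bone marrow-derived libraries). With the replicate block, the counts were 3, 42, 4 and 6, Abcg1 between ascites and thio was lost (adjusted p 0.0732), and Mylip was gained in KO against WT in M1 (0.0416) and in the M0 difference of responses (0.0366). Depth limits Apoc1, with at most 7 counts per bone marrow-derived group outside KO_M0.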
